A study of Mus musculus with 7 samples.

Results

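Hepatic progenitor cells are recognised by proteins at their surface and by the transcription factor SOX9, and 8 genes of this kind were read across the 7 arrays of the study: Epcam, Prom1, Cd24a, Cd44, Lgr5, Gpc3, Anpep and Sox9. They were chosen by name, and every probe set annotated to one of them was kept and read separately, which gave 17 of the 45037 probe sets that are not array controls. Each of the 17 carried 1 gene symbol, and the array reads 18193 genes through such probe sets. Epcam and Lgr5 have 2 probe sets each, Cd24a and Sox9 have 3 each, Cd44 has 4, and Prom1, Gpc3 and Anpep have 1 each.

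The tested cells were induced hepatic stem cells (iHepSC), made from mouse embryonic fibroblasts (MEF) by infection with lentivirus that carried Oct4 and Hnf4α in an SFFV vector, then moved to hepatocyte (HEP) medium and expanded as clones. They were measured on 1 array at passage 3 and 1 array at passage 20, and the study describes 1 clone, iHepSC-C3, as the one analysed in detail. The account of the arrays speaks of iHepSC clones and does not name the clone of either array. Primary hepatocytes (pHep) came from 6-week-old mice by collagenase perfusion, were plated for a short time and were measured on 1 array. The starting fibroblasts, from embryos without head and internal organs and with no added factor, were measured on 4 arrays. The strain is labelled C57BL/6, and the methods give C57BL/6J for the embryos and the hepatocyte donors. No label says that arrays of a group came from separate cultures or animals, so a p-value measures only the spread between these arrays, which may be technical. The single pHep array was given the spread of the other cell types in the tests.

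EpCAM is an adhesion molecule of epithelia that marks bile ducts and the progenitors around them, and prominin-1 (CD133), CD24 and aminopeptidase N (CD13) are used with it to sort progenitors from the liver. CD44 binds hyaluronan, LGR5 is a receptor through which R-spondins strengthen Wnt signalling, and glypican-3 is a heparan sulfate proteoglycan of the fetal liver. SOX9 directs the formation of bile ducts.

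The values are log2 expression levels after Robust Multiarray Analysis (RMA), on which 1 unit is a 2-fold change. A probe set was called where its adjusted p was under 0.05 in a limma model over all probe sets. Array medians lay between 6.28 and 6.33. MEF replicates 2 to 4 correlated at 0.997 with each other over all probe sets, whereas MEF replicate 1 correlated with them at 0.960 to 0.961. Each call on a member that changes without that array is given both ways. Leaving that array out raised calls between iHepSC and MEF from 10228 to 21450 of all 45037 probe sets. For pairs of probe sets within a gene, calls rose from 2787 to 9900 of 16752. A call gained in this way is therefore not particular to a member. Of 11 hepatocyte markers, 7 were higher in iHepSC than in MEF and 10 were higher in pHep than in MEF. The exception in pHep was Cyp2e1, a cytochrome P450 of mature hepatocytes, at 5.11 in pHep against 5.22 to 5.52 in MEF. All 12 fibroblast markers were lower in iHepSC than in MEF, and 9 of 12 were lower in pHep. Over all genes, each read by its brightest probe set, 17% were higher and 12.5% lower in iHepSC than in MEF. In pHep against MEF these shares were 14.6% and 15.2%. In such bulk samples, fewer cells of a type and less RNA per cell cannot be told apart.

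Epcam and Prom1 lay furthest apart in opposite directions between iHepSC and pHep, and their promoters are shown for that reason. Each window is the 300 bases around the annotated transcript start in RefSeq on GRCm38.p6, for Epcam chr17:87635729-87636028 on the plus strand and for the upstream start of Prom1 chr5:44101687-44101986 on the minus strand. Capitals mark the motifs found on either strand.
Epcam: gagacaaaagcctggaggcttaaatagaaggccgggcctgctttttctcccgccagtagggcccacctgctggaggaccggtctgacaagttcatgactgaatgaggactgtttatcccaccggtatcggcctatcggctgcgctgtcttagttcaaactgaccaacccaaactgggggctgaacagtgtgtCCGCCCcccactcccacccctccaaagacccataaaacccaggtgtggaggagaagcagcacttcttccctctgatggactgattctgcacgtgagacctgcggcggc
Prom1: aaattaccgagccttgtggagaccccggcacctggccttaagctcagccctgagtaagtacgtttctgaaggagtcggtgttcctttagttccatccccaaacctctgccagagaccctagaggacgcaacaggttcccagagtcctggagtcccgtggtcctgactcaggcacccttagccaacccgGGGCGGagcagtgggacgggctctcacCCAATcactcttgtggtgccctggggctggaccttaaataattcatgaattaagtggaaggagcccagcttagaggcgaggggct
The motifs searched on both strands were the GC box GGGCGG, the TATA box TATAAA, the CCAAT box CCAAT, the octamer ATGCAAAT, the HNF4 core CAAAGTCCA, the nuclear receptor half-site AGGTCA, the TCF/LEF motif CTTTGA and the SOX motif ACAAT, where an HNF4 core that follows a T also holds the TCF/LEF motif on the other strand. The Epcam window held 1 GC box, written there as its reverse complement, and none of the other motifs. The Prom1 window held 1 GC box and 1 CCAAT box. Of 32851 promoter windows of the same length, 35.7% held the GC box and 37.4% the CCAAT box, 13.6% the TATA box, 1.74% the octamer, 0.475% the HNF4 core, 16.3% the half-site, 16% the TCF/LEF motif and 31% the SOX motif. A second annotated start of Prom1, at chr5:44094719-44095018, held 1 TCF/LEF motif. Both printed windows were 57% G and C. RefSeq windows were at hand for 5 of the 8 genes, and those of Cd44, Anpep and Gpc3 held 1, 4 and 4 GC boxes.

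Between iHepSC and MEF, 4 of the 17 probe sets were higher, 7 were lower and 6 were not called. Those called came to 64.7% of the members, where 22.7% of all probe sets were called, 13% as higher and 9.76% as lower. The 4 higher ones belonged to Epcam and Cd24a, and the 7 lower ones to Cd44, Sox9, Gpc3 and Anpep. Between pHep and MEF, 6 were higher (Prom1, Cd24a and Sox9), 2 were lower (Gpc3 and the second Epcam probe set) and 9 were not called, against a background of 27.7% of all probe sets called, 15.4% higher and 12.3% lower. Both comparisons use the same 4 MEF arrays. Directly between iHepSC and pHep, 2 were higher, 4 were lower and 11 were not called, with 15.6% of all probe sets called, 6.48% higher and 9.13% lower. The median difference of the members was -0.50, -0.01 and -0.11 in these 3 comparisons, and that of all probe sets was -0.00, -0.10 and 0.10.

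**Figure D1:**
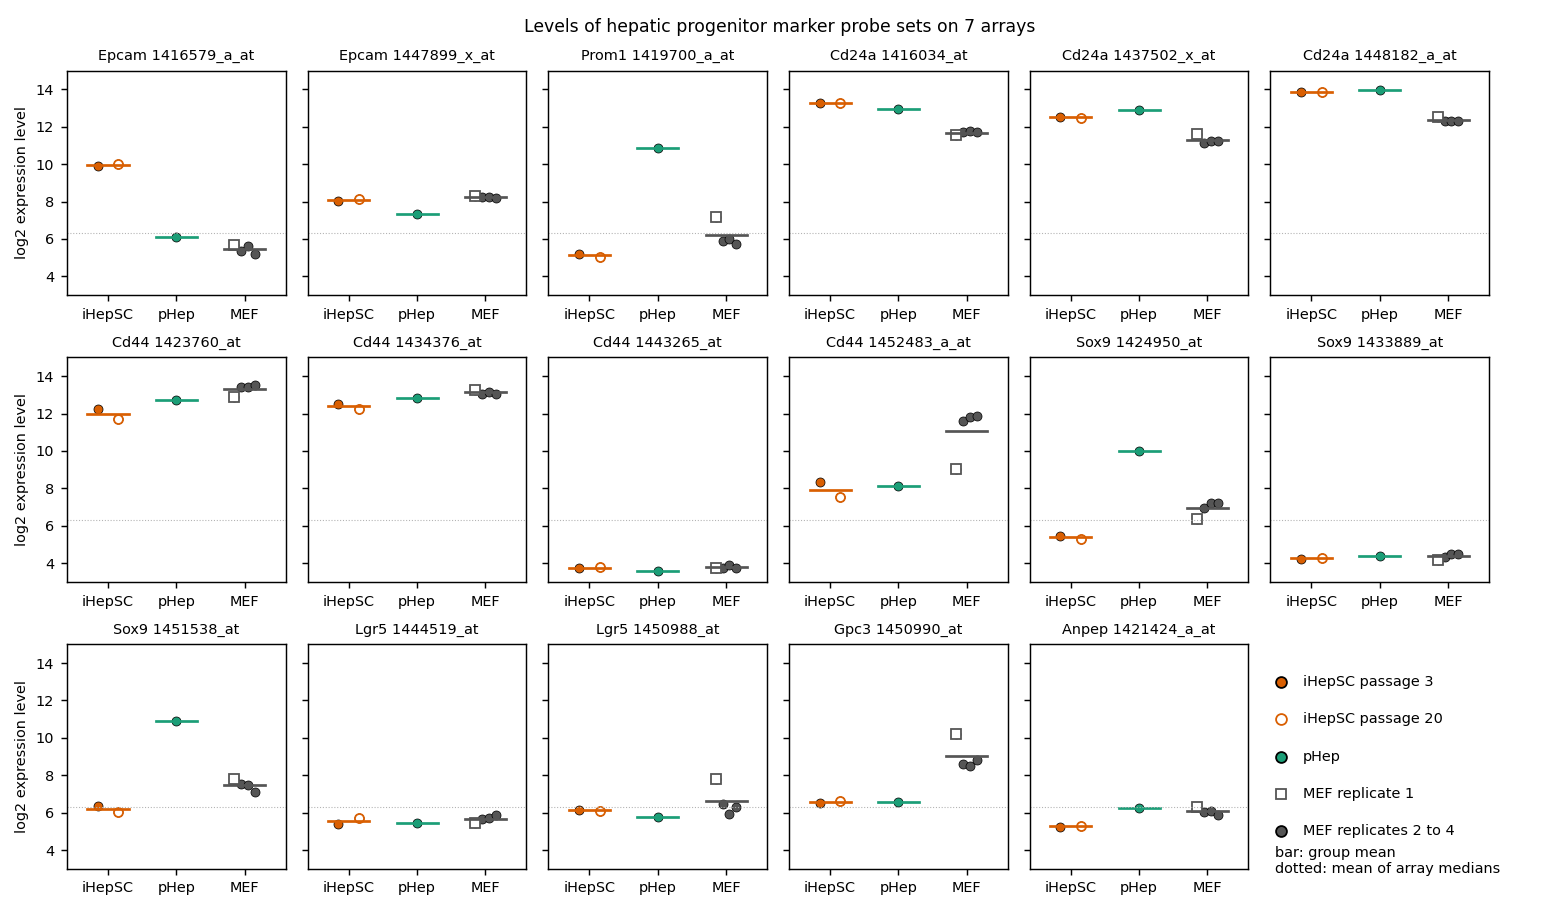
Log2 expression level (vertical axis) of the 17 probe sets of the 8 genes in iHepSC, pHep and MEF, 1 point per array with a bar at each group mean and a dotted line at the mean of the array medians. The Epcam probe set 1416579_a_at is near 10 in iHepSC only (9.90 and 10.01), and Prom1 and 2 of 3 Sox9 probe sets are near 10 to 11 in pHep only.

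By 1 of its 2 probe sets, Epcam was higher in iHepSC than in both other cell types. The probe set 1416579_a_at was at 9.90 and 10.01 in iHepSC (passages 3 and 20), 6.11 in pHep and 5.65, 5.36, 5.64 and 5.19 in MEF. Both iHepSC arrays lay above every other array, and the pHep value lay just above the MEF range. In iHepSC it averaged 9.96 ± 0.07 (SD, n = 2), against 5.46 ± 0.23 in MEF (SD, n = 4), a difference of 4.50 (SE 0.16, adjusted p = 1.52e-05), or 22.6-fold. It was also 3.84 higher in iHepSC than in pHep (SE 0.23, adjusted p = 0.000202). The pHep array was 0.65 above MEF, which missed the threshold (adjusted p = 0.0638) and passed it without MEF replicate 1 (difference 0.72, adjusted p = 0.0110).

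The second Epcam probe set, 1447899_x_at, had another pattern. It was at 8.04 and 8.14 in iHepSC, 7.34 in pHep and 8.32, 8.26, 8.24 and 8.16 in MEF, so that iHepSC lay just below the MEF range and pHep was the lowest. The difference of iHepSC from MEF was -0.15 (95% confidence interval -0.38 to 0.07, adjusted p = 0.302). In pHep it was 0.91 below MEF (difference -0.91, adjusted p = 0.00288, and 0.0942 with arrays scaled to Gapdh), and iHepSC exceeded pHep by 0.75 (adjusted p = 0.0125, and 0.0645 without the passage 20 array). With arrays scaled to Gapdh, the difference between iHepSC and pHep was not called either. The order of this probe set was MEF, iHepSC and pHep from high to low. The suffix _x_at marks a probe set with probes that can also match other sequences, whereas _a_at marks one whose probes recognise several transcripts of 1 gene. The difference between the 2 probe sets was itself past the test, with 1416579_a_at changing by 4.65 more than 1447899_x_at between iHepSC and MEF (adjusted p = 4.62e-05) and by 1.56 more between pHep and MEF (adjusted p = 0.00568). Between iHepSC and pHep it changed by 3.09 more (adjusted p = 0.00121).

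The partners of EpCAM were read from 11 genes, each by its brightest probe set, and 7 were higher in iHepSC than in MEF and none lower, where 29.5% of all genes were called, 17% higher and 12.5% lower. Tspan8, a tetraspanin found in complexes with EpCAM, was at 12.11 and 12.09 in iHepSC, 8.32 in pHep and 6.22 to 6.82 in MEF, and rose by 5.52 in iHepSC against MEF (adjusted p = 9.22e-06). Spint2, an inhibitor of the matriptase family of proteases that cleave EpCAM, was 4.88 higher in iHepSC and 4.22 higher in pHep than in MEF (adjusted p = 3.15e-06 and 1.99e-05). In pHep, 6 of these genes were higher than in MEF and 1 was lower, with 29.8% of all genes called, 14.6% higher and 15.2% lower. Cldn3, a tight junction claudin, rose by 3.34 in pHep (adjusted p = 4.42e-05) and differed by 0.18 between iHepSC and MEF (adjusted p = 0.312). Fhl2, which carries the released EpCAM tail into signalling, fell by 2.20 in pHep (adjusted p = 0.00154).

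Prom1 was far higher in pHep than in the other cells. Its probe set 1419700_a_at was at 5.21 and 5.03 in iHepSC, 10.87 in pHep and 7.18, 5.88, 5.99 and 5.71 in MEF. Both iHepSC arrays lay below every MEF array, and pHep lay far above all others. In pHep it was 4.67 higher than in MEF (SE 0.54, adjusted p = 0.00179), or 25.5-fold, and it was 5.74 lower in iHepSC than in pHep (difference -5.74, SE 0.59, adjusted p = 0.00169). Between iHepSC and MEF the difference was -1.07 (SE 0.42, adjusted p = 0.129). Without MEF replicate 1, which lay above the other MEF arrays by 1.32, the same difference was -0.74 and was called (adjusted p = 0.00116).

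Cd24a was the only gene with every probe set higher in both iHepSC and pHep than in MEF. The probe set 1416034_at was at 13.26 and 13.29 in iHepSC, 12.93 in pHep and 11.56, 11.74, 11.75 and 11.70 in MEF. For 1448182_a_at the levels were 13.87 and 13.85 in iHepSC, 13.95 in pHep and 12.52, 12.29, 12.31 and 12.32 in MEF. For 1437502_x_at they were 12.51 and 12.49 in iHepSC, 12.89 in pHep and 11.62, 11.12, 11.26 and 11.22 in MEF. No array of iHepSC or pHep overlapped with MEF in any of them. In iHepSC against MEF the 3 rose by 1.59, 1.51 and 1.20 (adjusted p = 0.000123, 0.000195 and 0.00294), and in pHep against MEF by 1.24, 1.59 and 1.58 (adjusted p = 0.00103, 0.000497 and 0.00259). No pair of Cd24a probe sets was called in either comparison, but without MEF replicate 1 the pair of 1416034_at minus 1448182_a_at was called in pHep against MEF (difference -0.44, adjusted p = 0.0236). Between iHepSC and pHep the differences were 0.34, -0.08 and -0.38, with confidence intervals of 0.01 to 0.68, -0.44 to 0.27 and -0.92 to 0.15, and none was called. Without MEF replicate 1, the first and the last of these were called, with opposite signs (adjusted p = 0.0401 for 1416034_at and 0.0354 for 1437502_x_at).

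Of 6 genes around CD133 and CD24, 1 was higher and 1 lower in iHepSC than in MEF, where 17% and 12.5% of all genes were called. Cd9, a tetraspanin, rose by 1.88 (adjusted p = 0.0214), and Siglecg, a receptor for CD24, fell by 1.73 (adjusted p = 0.00603). In pHep against MEF none was higher and 3 were lower, with 14.6% of all genes called higher and 15.2% lower. Among the 3 were Selp, the P-selectin that binds CD24, which fell by 2.48 (adjusted p = 0.0429), and Siglecg, which fell by 2.37.

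Cd44 was lower in iHepSC than in MEF by 3 of its 4 probe sets. The probe set 1434376_at was at 12.52 and 12.24 in iHepSC, 12.85 in pHep and 13.28, 13.07, 13.14 and 13.06 in MEF. For 1423760_at the levels were 12.22 and 11.72 in iHepSC, 12.73 in pHep and 12.87, 13.41, 13.41 and 13.53 in MEF. Both had iHepSC lowest, pHep between and MEF highest, with no overlap. They fell by 0.76 and 1.33 in iHepSC against MEF (adjusted p = 0.00682 and 0.00960), and neither was called without the passage 20 array (adjusted p = 0.0650 and 0.0931). With arrays scaled to Gapdh the difference of 1434376_at was -0.27 and not called (adjusted p = 0.359). In pHep the differences from MEF were -0.29 and -0.57 (adjusted p = 0.224 and 0.208), and that of 1423760_at was called without MEF replicate 1 (difference -0.71, adjusted p = 0.0155). Between iHepSC and pHep the differences were -0.47 and -0.76 (adjusted p = 0.135 and 0.196), and without MEF replicate 1 both were called (adjusted p = 0.0354 and 0.0220).

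The Cd44 probe set 1452483_a_at had the widest spread inside a group. It was at 8.32 and 7.52 in iHepSC, 8.14 in pHep and 9.04, 11.63, 11.81 and 11.85 in MEF, so that MEF replicate 1 lay nearer to pHep and iHepSC than to the other fibroblast arrays. In iHepSC it was 3.17 below MEF (difference -3.17, SE 0.86, adjusted p = 0.0459), and the call was lost without MEF replicate 2, 3 or 4 or either iHepSC array (adjusted p = 0.115 to 0.273). In pHep it was 2.94 below MEF (difference -2.94, adjusted p = 0.100), which became -3.62 (adjusted p = 3.30e-05) without MEF replicate 1. The fourth probe set, 1443265_at, was dim on every array, at 3.72 and 3.81 in iHepSC, 3.56 in pHep and 3.72 to 3.90 in MEF. Its difference of -0.01 between iHepSC and MEF departed from that of 1434376_at by 0.75 (adjusted p = 0.0295). That call was lost without MEF replicate 2, 3 or 4 or either iHepSC array (adjusted p = 0.0680 to 0.250). The probe set 1452483_a_at departed from it by -2.41, which was not called (adjusted p = 0.113) unless MEF replicate 1 was left out (difference -3.14, adjusted p = 5.08e-06). Without that array 3 more Cd44 pairs with 1434376_at were called against MEF: 1423760_at in iHepSC (-0.77, adjusted p = 0.00132, against 0.183 with all arrays), 1423760_at in pHep (-0.48, adjusted p = 0.0362, against 0.592) and 1452483_a_at in pHep (-3.38, adjusted p = 1.46e-05, against 0.152). The pair of 1443265_at was then also called between iHepSC and pHep (0.68, adjusted p = 0.0281, against 0.176).

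In the hyaluronan system that CD44 serves, 3 of 14 genes were higher in iHepSC than in MEF and 6 were lower, where 17% and 12.5% of all genes were called. Has2, the main hyaluronan synthase of fibroblasts, was at 4.79 and 5.02 in iHepSC, 5.06 in pHep and 10.04 to 11.20 in MEF, and fell by 5.91 in iHepSC and by 5.76 in pHep (adjusted p = 9.74e-05 and 0.000341). Mmp14, a membrane protease that sheds CD44, fell by 5.99 in iHepSC (adjusted p = 0.000116), while pHep differed from MEF by 0.53 (adjusted p = 0.434). Ezr, which links the tail of CD44 to actin, rose by 3.12 in iHepSC and 1.65 in pHep (adjusted p = 0.00118 and 0.0321). Esrp2, an epithelial splicing regulator of which Cd44 is a known target, rose by 2.98 and 3.63 in iHepSC and pHep (adjusted p = 0.00271 and 0.00326). In pHep, 2 genes of this list were higher than in MEF and 3 lower, with 14.6% of all genes called higher and 15.2% lower.

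Sox9 was lowest in iHepSC and highest in pHep by 2 of its 3 probe sets. The probe set 1451538_at was at 6.38 and 6.06 in iHepSC, 10.90 in pHep and 7.78, 7.52, 7.47 and 7.09 in MEF. For 1424950_at the levels were 5.47 and 5.28 in iHepSC, 9.99 in pHep and 6.35, 6.93, 7.22 and 7.24 in MEF. The 3 groups did not overlap in either. In pHep they were 3.43 and 3.06 higher than in MEF (adjusted p = 0.000368 and 0.00168), or 10.8-fold and 8.35-fold. In iHepSC they fell by 1.25 and 1.55 against MEF (adjusted p = 0.00752 and 0.00920), and the iHepSC arrays lay 4.68 and 4.62 below pHep (adjusted p = 0.000243 and 0.000716). The calls against MEF in iHepSC were lost without the passage 20 array (adjusted p = 0.0833 and 0.0938), and that of 1424950_at also without the passage 3 array (adjusted p = 0.0633). With arrays scaled to Gapdh the difference of 1451538_at was -0.76 (adjusted p = 0.0837).

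The third Sox9 probe set, 1433889_at, was near the bottom of the scale and flat, at 4.21 and 4.30 in iHepSC, 4.36 in pHep and 4.18, 4.31, 4.49 and 4.49 in MEF. Its difference was -0.11 in iHepSC against MEF and -0.01 in pHep against MEF (adjusted p = 0.574 and 0.978). The difference of 1433889_at minus 1451538_at was 1.13 between iHepSC and MEF (adjusted p = 0.0465, and 0.105 to 0.311 without MEF replicate 2, MEF replicate 3 or either iHepSC array) and -3.44 between pHep and MEF (adjusted p = 0.00281). The other pair, 1424950_at and 1451538_at, was not called in either, with confidence intervals of -1.31 to 0.70 for iHepSC and -1.67 to 0.93 for pHep. Without MEF replicate 1 it was called for iHepSC against MEF (difference -0.61, adjusted p = 0.0344). Over all 5 genes with more than 1 probe set, 3 of 9 pairs differed between iHepSC and MEF and 2 of 9 between pHep and MEF, where 16.6% and 17.8% of 16752 pairs were called. In iHepSC against pHep 2 of 9 differed, with 7.19% of all pairs called.

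**Figure D2:**
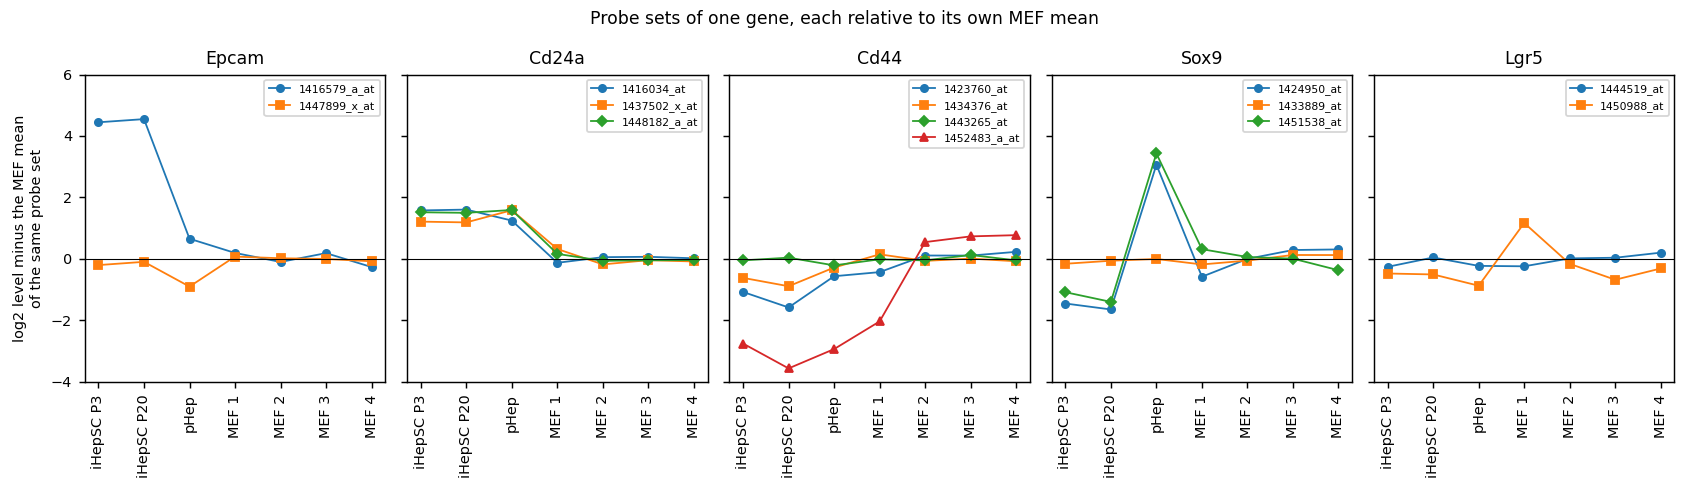
Log2 level minus the MEF mean of the same probe set (vertical axis) on each array (horizontal axis, iHepSC, pHep, then MEF), for Epcam, Cd24a, Cd44, Sox9 and Lgr5. The 3 Cd24a lines run together, the Epcam lines part at iHepSC (4.50 against -0.15 on average), and 1 Sox9 line stays flat while the other 2 rise in pHep by 3.06 and 3.43.

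Of 14 partners of SOX9 and duct regulators, 1 was higher and 2 were lower in iHepSC than in MEF, where 17% and 12.5% of all genes were called. Onecut2, a factor of the liver and duct lineage, was at 9.49 and 9.54 in iHepSC, 11.77 in pHep and 4.83 to 5.05 in MEF, and rose by 4.57 in iHepSC and by 6.82 in pHep (adjusted p = 2.94e-06 and 5.45e-06). Tead2, a partner of YAP, fell by 3.42 in iHepSC (adjusted p = 0.000271). In pHep 5 were higher, Onecut1 (HNF6) by 4.67 (adjusted p = 0.000457), and 1 was lower, Yap1 by -0.55 (adjusted p = 0.0479). Over all genes, 14.6% were higher in pHep and 15.2% lower.

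Markers of bile duct cells were also read, since duct cells express Sox9. On the linear scale the 11 that were read summed to 41590 to 44692 in iHepSC, 19768 in pHep and 4188 to 4706 in MEF. Of them, 7 were higher in iHepSC than in MEF and none lower, where 17% and 12.5% of all genes were called. Against pHep, 5 were higher in iHepSC (Krt19, Cftr, Muc1, Aqp1 and Tspan8) and 3 were lower (Bicc1, Pkhd1 and Cldn4). The median difference of 1.55 was 0.33 without _x_at and _s_at probe sets. Over all 18193 genes, 1664 were higher in iHepSC than in pHep and 1414 were lower. In pHep against MEF, 14.6% of all genes were higher and 15.2% lower. Krt7, a duct keratin, was at 13.43 and 13.52 in iHepSC, 11.17 in pHep and 5.77 to 7.86 in MEF. Krt19, the other duct keratin, was at 14.43 and 14.07 in iHepSC, 9.70 in pHep and 7.78 to 9.67 in MEF, and differed from MEF by 0.61 in pHep (adjusted p = 0.558). In pHep 5 of the 11 were higher than in MEF and 2 lower, with Pkhd1, the fibrocystin of cilia, higher by 5.89 (adjusted p = 8.14e-05) and Aqp1, a water channel, lower by 4.03 (difference -4.03, adjusted p = 0.00467). Macrophage markers were highest in pHep, as were Prom1 and 2 Sox9 probe sets. The 12 summed to 24235 in pHep, against 5190 to 7283 in iHepSC and 2404 to 7200 in MEF. The ranges of iHepSC and MEF overlapped, whereas Prom1 and those Sox9 probe sets lay below MEF in iHepSC. Of the 12, 7 were higher in pHep than in MEF and none lower, where 14.6% and 15.2% of all genes were called. Vsig4 rose by 6.26 and C1qb by 4.78 in pHep (adjusted p = 2.53e-05 and 0.00292). The sum of 11 hepatocyte markers was also highest in pHep, at 142589. It was 85615 to 94626 in iHepSC and 660 to 729 in MEF. The part of either cell type in the Prom1 and Sox9 values was not tested.

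Lgr5 gave no call. The probe set 1450988_at was at 6.14 and 6.11 in iHepSC, 5.74 in pHep and 7.79, 6.46, 5.94 and 6.30 in MEF, and 1444519_at was at 5.40 and 5.71 in iHepSC, 5.43 in pHep and 5.42, 5.68, 5.70 and 5.87 in MEF. Both iHepSC arrays lay within the MEF range by the first probe set, and by the second passage 20 lay within it and passage 3 just below. In iHepSC against MEF the differences were -0.50 (confidence interval -1.71 to 0.72, adjusted p = 0.543) and -0.11 (-0.49 to 0.27, adjusted p = 0.673). In pHep against MEF they were -0.88 and -0.23 (adjusted p = 0.349 and 0.430), and between iHepSC and pHep they were 0.38 (-1.34 to 2.10) and 0.12 (-0.42 to 0.66). These intervals leave room for a change of more than 2-fold in the first probe set.

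Of 15 genes of R-spondin and LGR signalling, 2 were higher and 3 lower in iHepSC than in MEF, where 17% and 12.5% of all genes were called. Lgr4, the related R-spondin receptor, was at 11.98 and 11.94 in iHepSC, 10.60 in pHep and 10.26 to 10.54 in MEF, and rose by 1.53 (adjusted p = 0.000265), and the Wnt co-receptor Lrp5 rose by 1.60 (adjusted p = 0.00362). The ligand Rspo2 was at 4.79 and 4.83 in iHepSC, 4.60 in pHep and 9.01 to 10.81 in MEF, and fell by 4.71 and 4.92 in iHepSC and pHep (adjusted p = 0.00167 and 0.00375). Rspo3 fell by 4.22 and 3.46 (adjusted p = 0.00888 and 0.0397). Rnf43, a ubiquitin ligase that removes Wnt receptors, rose by 3.12 in pHep (adjusted p = 0.00448) and differed by -0.10 between iHepSC and MEF (adjusted p = 0.873). Axin2, a common readout of Wnt signalling, was not called in either.

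Gpc3 was lower in both iHepSC and pHep than in MEF. Its probe set 1450990_at was at 6.51 and 6.65 in iHepSC, 6.55 in pHep and 10.20, 8.62, 8.48 and 8.83 in MEF, and no iHepSC or pHep value reached the MEF range. It fell by 2.45 in iHepSC (SE 0.49, adjusted p = 0.0158) and by 2.49 in pHep (SE 0.63, adjusted p = 0.0327), and iHepSC and pHep differed by 0.03 (confidence interval -1.66 to 1.73). The call in iHepSC was lost without either iHepSC array (adjusted p = 0.118 without passage 3 and 0.110 without passage 20). That in pHep was lost without MEF replicate 2, MEF replicate 4 or either iHepSC array (adjusted p = 0.0573 to 0.0731).

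Among 14 glypicans, heparan sulfate enzymes and ligands, 3 were higher and 6 lower in iHepSC than in MEF, and 3 were higher and 3 lower in pHep. The shares over all genes were 17% higher and 12.5% lower in iHepSC, and 14.6% and 15.2% in pHep. Igf2, the growth factor of fetal tissue, was at 7.10 and 7.64 in iHepSC, 9.42 in pHep and 13.25 to 13.50 in MEF, and fell by 5.98 in iHepSC and fell by 3.94 in pHep (adjusted p = 5.98e-06 and 0.000101). Gpc4 fell by 4.70 in iHepSC (adjusted p = 0.000220), with a difference of -0.67 in pHep (adjusted p = 0.279). Sulf1, a sulfatase that edits heparan sulfate, fell by 4.61 in pHep (adjusted p = 0.00432). The hedgehog ligand Ihh rose by 2.17 in iHepSC (adjusted p = 0.000242), and its receptor Ptch1 rose by 1.71 in pHep (adjusted p = 0.00879).

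Anpep was lower in iHepSC than in both other cell types. The probe set 1421424_a_at was at 5.23 and 5.31 in iHepSC, 6.24 in pHep and 6.28, 6.02, 6.10 and 5.89 in MEF, so that iHepSC lay below and pHep lay inside the MEF range. It fell by 0.80 in iHepSC against MEF (SE 0.13, adjusted p = 0.00666) and lay 0.97 below pHep (adjusted p = 0.0170), and pHep differed from MEF by 0.17 (adjusted p = 0.491). The first of these was lost without either iHepSC array (adjusted p = 0.0663 and 0.0544) and, with arrays scaled to Gapdh, was -0.31 (adjusted p = 0.338). The second was also lost without either iHepSC array (adjusted p = 0.0888 and 0.0695) and with arrays scaled to Gapdh. Every Anpep value lay below the median of its array. Of 9 other peptidases, none was higher and 2 were lower in iHepSC than in MEF, where 17% and 12.5% of all genes were called. The 2 were the neprilysin gene Mme, by -3.37 (adjusted p = 0.00111), and Fap, by -2.91 (adjusted p = 0.000120). In pHep, Enpep (aminopeptidase A) was at 11.23, against 4.93 to 5.54 in MEF, and rose by 5.92 (adjusted p = 4.83e-05), while Fap fell by 2.63 (adjusted p = 0.000567).

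**Figure D3:**
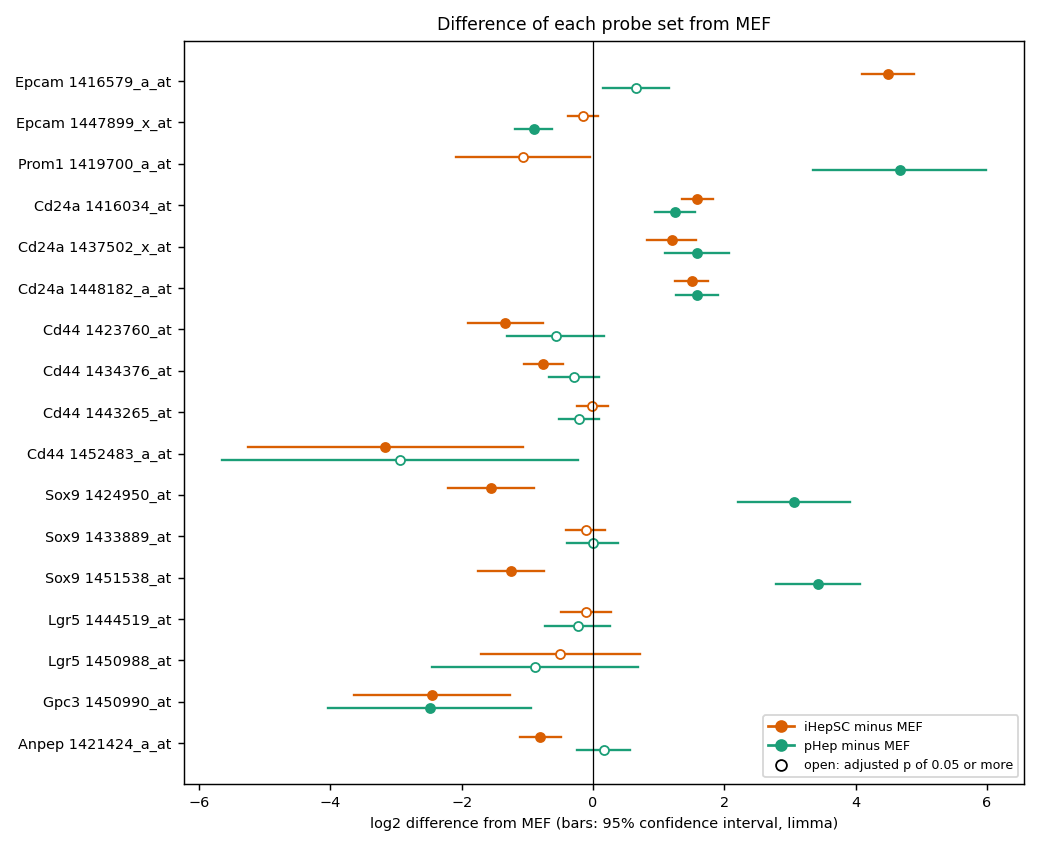
Log2 difference from MEF (horizontal axis) with 95% confidence intervals from limma for each probe set (vertical axis), iHepSC above pHep in each row, filled points being called. Epcam 1416579_a_at stands at 4.50 for iHepSC and 0.65 for pHep, and Prom1 and 2 Sox9 probe sets lie below 0 for iHepSC and at 3.06 to 4.67 for pHep.

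The 2 passages could only be set side by side, with 1 array each. Passage 20 minus passage 3 ranged over the 17 probe sets between -0.81 and 0.30 with a median of -0.02, and 8 were above 0 and 9 below. Epcam 1416579_a_at differed by 0.10, and the 3 Cd24a probe sets by -0.03 to 0.03. The largest difference was that of Cd44 1452483_a_at, at -0.81, and Cd44 1423760_at followed at -0.50. Both lay outside the range of -0.35 to 0.35 between the 5th and 95th percentile of all probe sets. By definition that range leaves out the lowest 5% and the highest 5%, so lying outside it does not set the members apart. In the MEF group, replicate 1 minus the mean of replicates 2 to 4 was -2.72 for Cd44 1452483_a_at, 1.56 for Gpc3, 1.55 for Lgr5 1450988_at and 1.32 for Prom1.

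**Figure D4:**
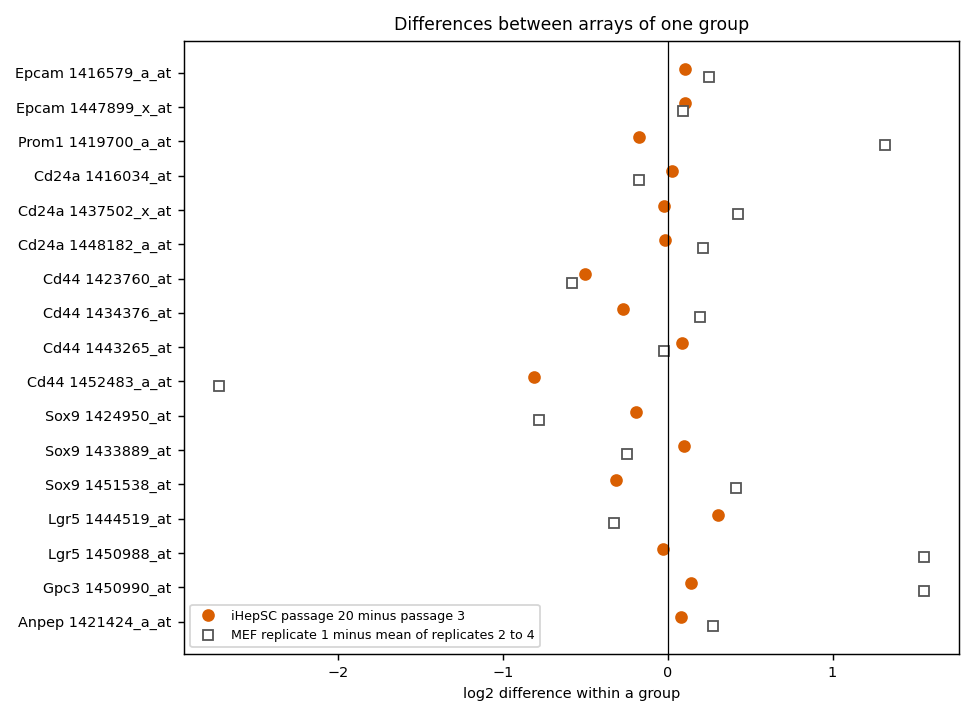
Log2 differences within a group (horizontal axis) for each probe set (vertical axis): iHepSC passage 20 minus passage 3 (filled circles) and MEF replicate 1 minus the mean of MEF replicates 2 to 4 (open squares). The passages stay within -0.81 to 0.30, and MEF replicate 1 departs by -2.72 to 1.56.

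The genes whose pattern over the 7 arrays was most like each member were found among 13950 genes, after centring each gene on its mean, by the mean absolute log2 difference from the member's most variable probe set. For Epcam they were Pllp (0.0863, Pearson r = 0.998) and Il18 (0.124, r = 0.998). For Prom1 they were C1qc, a complement gene of macrophages (0.188), and F5 (0.220), for Sox9 As3mt (0.135) and Agtr1a (0.223), and for Cd24a Gstp1 (0.0546) and Sepsecs (0.0572). Those of Cd44 were Ddias (0.200) and Gpr149 (0.230), and those of Gpc3 were Scarf2 (0.122) and Tiam1 (0.167). Lgr5 was nearest to Iglon5 (0.0660) and Pcdhb21 (0.101), and Anpep to Coq6 (0.0639) and Otub2 (0.0640). The 7 arrays are of 3 cell types, so any gene that differs between them in a like way will lie close.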

How the data were processed

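RNA of iHepSC, pHep and MEF was measured on Affymetrix mouse expression arrays. The authors deposited log2 values of 45101 probe sets, made by RMA, which corrects background, quantile-normalizes arrays and summarises probes, and the RMA software version is not given in the sources used here. RMA assumes like signal distributions on all arrays, so differences are relative to the other probe sets. Precision is limited by the number of arrays. No detection call was used.

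Gene symbols came from the platform annotation. Of 45037 probe sets, 34945 carried 1 symbol, 932 several and 9160 none, and 64 control probe sets were left out. Members were all probe sets of the 8 genes. Tests used lmFit and eBayes of limma 3.58.1 under R 4.3.3, without a trend, with 1 mean per group over 7 arrays, 4 residual and 2.06 prior degrees of freedom, and Benjamini-Hochberg adjustment over all 45037 probe sets at 0.05. Differences between probe sets of 1 gene (each minus the one with the highest mean) were fitted likewise over 16752 pairs. Genes of lists were read by their probe set with the highest mean, and list genes with no such probe set are not analysed here. The code was tested on simulated data. Tables and figures used Python 3.11.15, pandas 2.3.3 and matplotlib 3.10.9.

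Members, lists and tests were chosen with earlier results of these data known. Named genes were all member probe sets, per list the largest rise and fall past the test in iHepSC against MEF and up to 2 in pHep against MEF, defining cell type markers, and for each member the 2 genes most alike. Genes beyond these (Lgr4, Gpc4, Axin2, Kit, Bex1 and Cyp2e1, and the second comparison of a gene the rule names in 1) were named after their values were seen. Alternatives were the normalization, the Gapdh scaling, trended fitting, filters on dim probe sets (under 6 on every array) and on suffixes, 1 value per gene, a smallest log2 difference of 1, the methods' t-test, a replicate block and leaving out each array.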

Additional observations from a re-analysis of the deposited data

Results flagged for a closer look

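In the MEF group, 2 of the 17 probe sets had 1 array far from the other 3, with a gap over the group's range above Dixon's 95% critical value. The Cd24a probe set 1448182_a_at was at 12.52 in MEF replicate 1, above the other MEF arrays at 12.29 to 12.32. The Cd44 probe set 1452483_a_at was at 9.04 in MEF replicate 1, below the other MEF arrays at 11.63 to 11.85. Chance alone marks about 1 in 20 groups in this way, and 21.0% of all probe sets were marked in MEF. Both marked arrays are MEF replicate 1, which also correlated less with the other MEF arrays over all probe sets.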

How the results depend on the processing

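No difference changed sign where it had been called. Of 17 member probe sets, 11 were called between iHepSC and MEF. This was 1 with the replicate number as a block and 3 with MEF replicates 2 to 4 averaged as 1 sample (a choice made after seeing the data). With MEF averaged, Epcam 1416579_a_at, Cd24a 1416034_at and Cd24a 1448182_a_at remained. The calls were 6 of 8 genes with 1 value per gene, and 4 to 12 when each array was left out. Over all 45037 probe sets, 10228 calls became 1465 with the block and 21450 without MEF replicate 1. Between pHep and MEF the 8 calls became 1 with the block and 7 to 11 when each array was left out. Over all probe sets, 12466 calls became 683 with the block and 24178 without MEF replicate 1. Between iHepSC and pHep the 6 calls became 0 with the block (6 at an unadjusted p under 0.05 in limma) and 4 to 10 when each array was left out. The block called 0 of all 45037 probe sets in that comparison, against 7030 without it, so its 0 does not set the members apart. Without MEF replicate 1, 16695 of all probe sets were called there. The 3 probe set pairs that differed between iHepSC and MEF became 1 with the filter on dim probe sets and with the block. They also became 1 with MEF replicates 2 to 4 averaged, and 1 to 6 when each array was left out. Over all 16752 pairs, 2787 calls became 415 with the block and 9900 without MEF replicate 1. The 2 pairs between pHep and MEF became 1 with the dim filter, without _x_at and _s_at probe sets and with MEF averaged. They became 0 with the block (3 at an unadjusted p under 0.05 in limma), and 2 to 5 when each array was left out. The block called 0 of all 16752 pairs in that comparison, against 2976 without it. The 2 pairs between iHepSC and pHep became 1 with the dim filter and without _x_at and _s_at probe sets. They became 0 with the block (2 at an unadjusted p under 0.05 in limma), and 2 to 3 when each array was left out. These alternatives for the pairs between iHepSC and pHep were chosen after seeing the data. The block called 5 of all 16752 pairs there, against 1205 without it. In all 3 comparisons, the pair calls lost with the dim or suffix filter belonged to pairs no longer tested. The dim filter removed Sox9 1433889_at and Cd44 1443265_at, and the suffix filter removed Epcam 1447899_x_at. Called pairs that were still tested kept their call under these filters. The pHep array was never left out. In the labels, the iHepSC and MEF arrays share numbers only. Deviations of same-numbered arrays correlated at -0.22 and -0.19. The deviations of 2 iHepSC arrays mirror each other, so these values cannot decide whether the numbers pair the arrays. The block leaves 1 residual degree of freedom.

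Scaling to Gapdh moved the median of all probe sets to 0.49 between iHepSC and MEF, 0.56 between iHepSC and pHep and -0.07 between pHep and MEF. The share of calls that were higher became 82.6% against 57.0% for all probe sets between iHepSC and MEF, and 50% against 36.4% for the members (4 higher and 4 lower). Between iHepSC and pHep it became 64.6% against 41.5% for all probe sets, and 25% against 33.3% for the members (1 higher and 3 lower). The median passage difference became 0.28, against -0.02. With few arrays, only 2 calls were kept in every alternative run. They were Epcam 1416579_a_at in iHepSC against MEF (adjusted p up to 0.0269 in limma) and Sox9 1451538_at in pHep against MEF (up to 0.04999).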

Other observations

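Other markers of hepatic progenitors and hepatoblasts, 19 in all, were also read. In iHepSC 10 were higher and 4 lower than in MEF, where 17% and 12.5% of all genes were called. In pHep 8 were higher and 4 lower, where 14.6% and 15.2% were called. Cdh1, the epithelial cadherin, was at 12.78 and 12.83 in iHepSC, 12.54 in pHep and 3.86 to 4.31 in MEF, and rose by 8.75 and 8.49 (adjusted p = 1.40e-06 and 6.35e-06 by limma). Afp, the fetal serum protein, was at 10.45 and 10.52 in iHepSC, 12.44 in pHep and 3.89 to 5.44 in MEF, and rose by 5.74 in iHepSC and 7.69 in pHep (adjusted p = 0.000245 and 0.000240). The pHep array, of 6-week-old mice, thus read this fetal gene above both iHepSC arrays. That array also read Cyp2e1 below the MEF range, while 10 of 11 hepatocyte markers were higher in pHep than in MEF. Whether it reflects mature hepatocytes was not tested. Thy1, a surface protein of fibroblasts that is also used as a progenitor marker, was at 4.84 and 5.10 in iHepSC, 5.04 in pHep and 11.88 to 13.08 in MEF. Dlk1, a surface protein of hepatoblasts, was at 5.98 and 6.56 in iHepSC, 6.18 in pHep and 8.91 to 10.84 in MEF, and fell by 4.01 and 4.10 (adjusted p = 0.00451 and 0.0103).

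Kit, the stem cell factor receptor, was at 8.43 and 7.54 in iHepSC, 4.22 in pHep and 4.21 to 4.50 in MEF, and was higher in iHepSC than in MEF by 3.69 and than in pHep by 3.77 (adjusted p = 0.000188 and 0.00114). Bex1 went the other way, at 3.68 and 3.63 in iHepSC, 14.28 in pHep and 8.82 to 10.04 in MEF, and was lower in iHepSC than in pHep (difference -10.63, adjusted p = 8.53e-05). Both were picked after their values were seen.

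Among markers of other cells, 3 of 8 endothelial markers were higher in iHepSC than in MEF, led by Cdh5 (3.10), and 1 was lower in pHep. Of 8 stellate cell markers, 3 were lower in iHepSC, with Acta2 at -7.15, and in pHep 1 was higher and 2 were lower. Of 8 lymphocyte, neutrophil and erythroid markers, 1 was higher in iHepSC and 1 was lower in pHep. Beside these counts, 17% of all genes were higher and 12.5% lower in iHepSC, and 14.6% and 15.2% in pHep.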
